A study of Mus musculus with 11 samples.

Results

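The genes described here encode the proteins of the cytosolic ribosome. They were chosen by symbol, as protein-coding genes named Rpl or Rps with a number, plus Rpsa and without the S6 kinases. The rule found 81 genes among 21896 protein-coding genes, 50 for the large subunit and 31 for the small subunit, on 19 chromosomes, of which 14 genes lay on chromosome 7. The study profiled 11 mouse samples, and each was the only one in its group, so no value below has a replicate error or a p-value. Chromatin came from Cited1-RFP+ cap mesenchyme, the nephron progenitors, of E18.5 kidneys with the Cited1nuc-TagRFP-T reporter, from a (C57BL/6 x DBA)F1 origin kept on C57BL/6J. It came also from Hoxb7-GFP+ ureteric epithelium, the future collecting ducts, of E15.5 kidneys with the Hoxb7myr-Venus/+ reporter, from a (C57BL/6J x CBA/J)F2 origin on C57BL/6J. The third source was E14, a wild-type 129/Ola embryonic stem cell line at passage 15. RNA came from other material, metanephric mesenchyme and ureteric bud of wild-type C57BL/6 embryos, dissected by hand at E11.5. Tissue, age and strain thus differed between the chromatin and the RNA, and strain and age differed between the 3 chromatin sources. Reporter sorting selects cells by 1 promoter each, hand dissection keeps neighbouring cells, and the labels do not say how many embryos were pooled.

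A ribosome is built from a small subunit, which reads the messenger RNA, and a large subunit, which joins the amino acids. Nearly all of their proteins are present in a single copy in each ribosome, and growing tissues such as the embryonic kidney make many of them. Messenger RNAs of ribosomal proteins in mammals typically begin with a C followed by an unbroken run of pyrimidines, through which the mTOR pathway controls their translation. Many of the genes carry small nucleolar RNAs in their introns, and many have given rise to processed pseudogenes that resemble their messenger RNA.

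Start sequences show members with a long pyrimidine run at the annotated start and members without one there. The RefSeq promoter table (GRCm38.p6, the mm10 coordinates of the files) held 61 of the 81 genes, and the 60 bases below run from 40 before the annotated start to 20 from it. Capitals mark the longest pyrimidine run that touches the 5 bases on either side of the start, where it has at least 5 bases. The first 4 belong to widely expressed members with a long run, and Rpl32l is a paralog of Rpl32. Rplp0 is an example, chosen after its sequence was seen, of a member with high RNA and no such run at its annotated start. Rpsa, Rps19, Rpl5, Rpl11 and Rpl10 also had runs under 5 bases there. Runs further from the annotated start were not marked, and whether those starts are exact was not tested.
Rplp2: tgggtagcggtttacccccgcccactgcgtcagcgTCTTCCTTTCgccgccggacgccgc
Rps6: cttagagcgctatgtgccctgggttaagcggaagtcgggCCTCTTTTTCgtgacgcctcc
Rpl38: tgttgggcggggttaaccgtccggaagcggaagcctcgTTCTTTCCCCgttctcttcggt
Rpl4: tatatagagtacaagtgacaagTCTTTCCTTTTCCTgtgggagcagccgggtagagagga
Rpl32l: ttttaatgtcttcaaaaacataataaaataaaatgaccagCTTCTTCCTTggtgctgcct
Rplp0: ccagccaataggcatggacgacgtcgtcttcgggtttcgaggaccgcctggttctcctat
The other 3 belong to paralogs that were listed at 0 FPKM in both tissues.
Rpl39l: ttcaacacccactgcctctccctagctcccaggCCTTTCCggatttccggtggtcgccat
Rpl10l: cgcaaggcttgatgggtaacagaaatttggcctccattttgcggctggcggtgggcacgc
Rpl3l: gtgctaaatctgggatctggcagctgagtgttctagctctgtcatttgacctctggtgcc
On the plus strand lie Rplp2 (chr7:141447611-141447670), Rpl38 (chr11:114668540-114668599), Rplp0 (chr5:115559427-115559486), Rpl4 (chr9:64173347-64173406), Rpl32l (chr10:20208399-20208458), Rpl39l (chr16:10170188-10170247) and Rpl3l (chr17:24727786-24727845). On the minus strand lie Rps6 (chr4:86857348-86857407) and Rpl10l (chr12:66284382-66284441). Rplp2, Rps6 and Rpl38 each had a run of 10 over the start, and Rpl4 had 14 just before its annotated start. Of the 61 genes, 20 (32.8%) had a C at or next to the start followed by at least 4 pyrimidines, against 7.40% of 17491 coding genes in the table. A run of 8 or more was present in 24 (39.3%), against 11.47% of all. Among 69 mitochondrial ribosomal protein genes the C start was present in 7.25% and the long run in 10.1%.

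Other letters were counted on both strands of the whole window, 250 bases before to 50 after the start. CCGGAAG, a core recognised by Ets factors such as GABP, was present in 41.0% of the members, in 37.7% of the mitochondrial ribosomal protein genes and in 12.9% of all coding genes. TCTTTCC, which can overlap the pyrimidine run, was present in 23.0% of members, 2.90% of the mitochondrial ones and 8.76% of all. AAGATGGC, the core of the YY1 motif, was present in 8.20% of members, in 17.4% of the mitochondrial ribosomal protein genes and in 3.57% of all. TATAAA was present in 11.48% of members, 7.25% of the mitochondrial ones and 14.8% of all. These are matches of letters and not measured binding.

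The RNA table gives FPKM, fragments scaled by transcript length and by library size, for 138486 transcripts. Transcripts with no reference took 93.6% of the summed FPKM in mesenchyme and 93.9% in bud, and levels are relative to those too. Coding genes summed to 144873 FPKM in mesenchyme and 218255 in bud, and read depth is unknown. As a check of the labels, 10 of 12 nephron progenitor genes were at least 2-fold higher in mesenchyme, and 12 of 12 ureteric genes were at least 2-fold higher in bud. The other 2 progenitor genes were at least 2-fold higher in bud, Cited1 with 2.78 FPKM in mesenchyme and 8.34 in bud, and Pax2 with 15.1 in mesenchyme and 41.1 in bud. All 8 stromal genes were at least 2-fold higher in mesenchyme, where they summed to 451 FPKM against 4.60 in bud. The 7 endothelial genes at 1 FPKM or more were higher in mesenchyme, and the whole list of 8 summed to 33.6 FPKM there and 3.72 in bud. Red cell genes summed to 150 FPKM in mesenchyme and 16.5 in bud. In the chromatin the endothelial genes stood the other way, with H3K4me3 at 1 of 8 starts in cap mesenchyme and at 8 of 8 in ureteric epithelium. At the 8 pluripotency genes H3K4me3 was present at 4 in cap mesenchyme, at 2 in ureteric epithelium and at all 8 in stem cells. What these other cells contribute to the values below was not tested, and fewer cells of a type cannot be told apart from less RNA per cell.

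The ribosomal protein genes spanned a wide range of RNA levels, given here in FPKM, which is scaled to transcript length. Their median was 11.8 FPKM in mesenchyme and 16.6 in bud. The highest was Rpl4, whose protein lines the exit tunnel of the large subunit (chromosome 9: 64173387 to 64178562, mm10), with 376 FPKM in mesenchyme and 616 in bud. Next by mean level came Rpl13a, with 303 FPKM in mesenchyme and 572 in bud. Rpl8, which lies close to the site of peptide bond formation, had 283 FPKM in mesenchyme and 506 in bud. Rplp2, a protein of the stalk that recruits elongation factors, had 247 FPKM in mesenchyme and 518 in bud. In each of these 4 the value was higher in bud. The 11 highest genes of each tissue held 66.5% of the members' summed FPKM in mesenchyme and 67.8% in bud.

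The low end was equally marked. Rps28 had 0.467 FPKM in mesenchyme and was listed at 0 in bud, and no fold is given for it. Rpl36a had 0.265 FPKM in mesenchyme and 0.614 in bud. Both values of Rpl36a were under the minimum of 1 FPKM set for the median differences. Rpl9 had 1.17 FPKM in mesenchyme and 2.20 in bud. Rps29, mutated in some human families with Diamond-Blackfan anaemia, had 1.51 FPKM in mesenchyme and 2.12 in bud. Rpl28 had 1.88 FPKM in mesenchyme and 2.78 in bud. In all, 26 members were under 10 FPKM in both tissues, among them 3 listed at 0 in both, and 11 reached 100 FPKM in both. These counts were not set beside a share of all coding genes. For scale, coding genes at 1 FPKM or more in either tissue had a median of 5.63 FPKM in mesenchyme and 8.39 in bud. Members with that level had 12.8 FPKM in mesenchyme and 20.3 in bud. The order of the members was nearly the same in the 2 libraries (Spearman's rho 0.98 across 78 genes above 0, which share transcript models and the authors' pipeline).

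**Figure D1:**
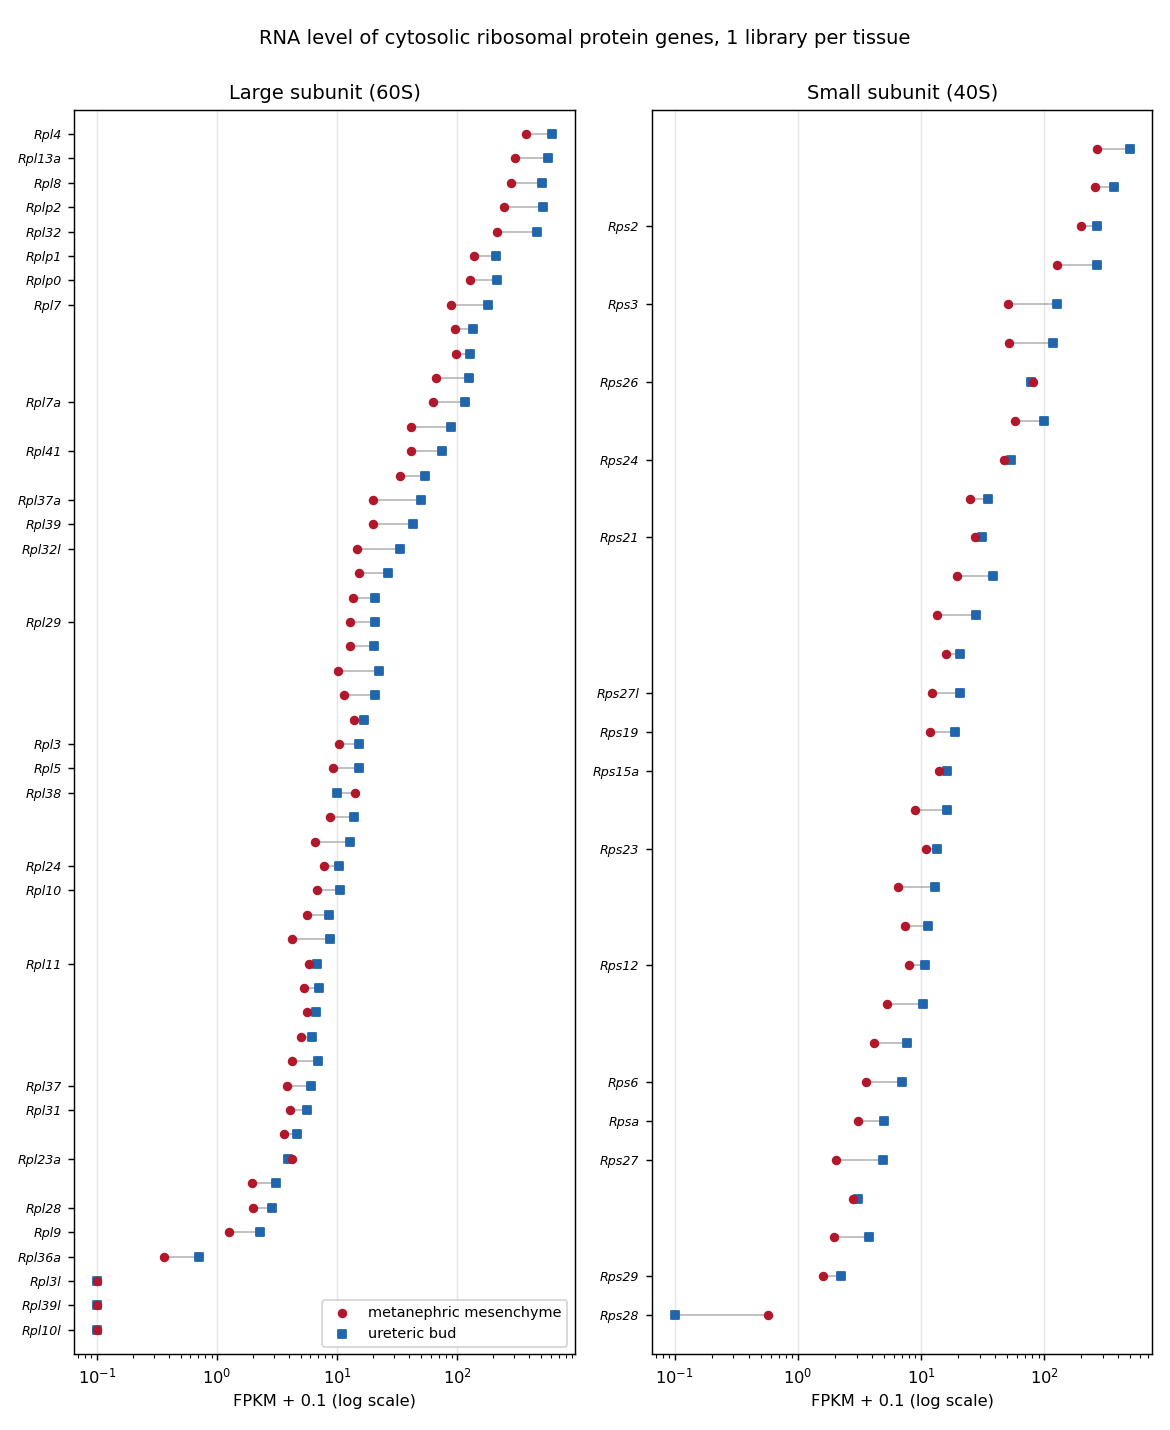
RNA level of each ribosomal protein gene in FPKM, shown as FPKM + 0.1 on a log axis, with metanephric mesenchyme as red circles and ureteric bud as blue squares, 1 library each and names for the genes described in the text. Levels run from 0 to 376 FPKM in mesenchyme and from 0 to 616 in bud, and the square lies to the right of the circle for nearly every gene.

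Some of the members with known roles in development and disease were low in these libraries. Rps6, the substrate of the S6 kinases, had 3.46 FPKM in mesenchyme and 6.89 in bud. Rpsa, mutated in human congenital asplenia, had 2.96 FPKM in mesenchyme and 4.88 in bud. Rpl5 had 9.19 FPKM in mesenchyme and 15.0 in bud, and Rpl11 had 5.69 in mesenchyme and 6.71 in bud. Rpl5 and Rpl11 bind Mdm2 when ribosome assembly is disturbed. Rps19, the gene most often mutated in Diamond-Blackfan anaemia, had 11.8 FPKM in mesenchyme and 18.6 in bud. The stalk proteins were high, with Rplp0 at 129 FPKM in mesenchyme and 214 in bud, and Rplp1 at 138 in mesenchyme and 209 in bud.

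Reads that match a pseudogene as well as its parent can be divided or dropped, so levels of genes with many copies are uncertain. The annotation named 315 pseudogenes after the members, 23 of them after Rps12 and 23 after Rpl31. The 19 members with none had a median of 12.1 FPKM in mesenchyme and 20.6 in bud. Among these 19 were the 3 members listed at 0 in both tissues, which the correlation below leaves out. The 27 with 1 or 2 had 19.6 FPKM in mesenchyme and 38.6 in bud, and the 35 with 3 or more had 7.84 in mesenchyme and 10.6 in bud. Across the 78 genes above 0, the mean level was lower with more named pseudogenes (Spearman's rho -0.33), a description over genes that share the same libraries. Exceptions stood at both ends, as Rps2, with 12 named copies, had 200 FPKM in mesenchyme and 267 in bud, and Rps28, the lowest member, had none. Transcript models add to the uncertainty, because 16 members had over 50% of their FPKM in transcripts with an unannotated junction. Rpl24, Rpl37, Rpl41 and Rps12 had 100% there. The same share over all coding genes was not computed, so the count does not set the members apart.

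**Figure D2:**
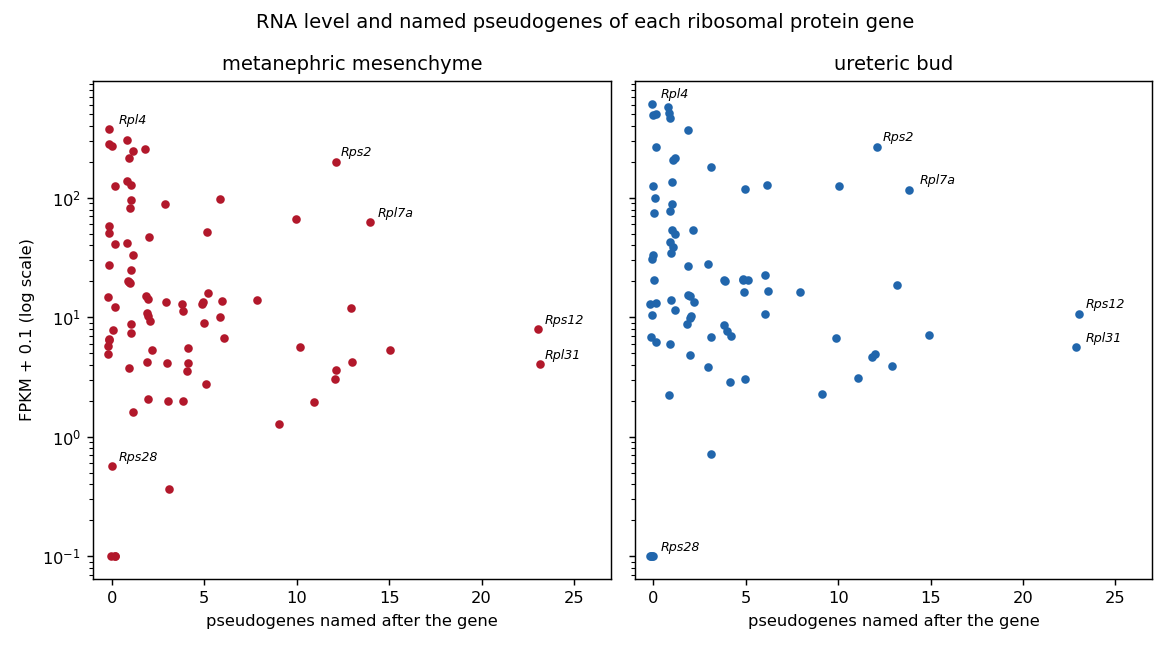
RNA level (FPKM + 0.1, log axis) of each ribosomal protein gene against the number of pseudogenes named after it, with mesenchyme on the left and bud on the right, and points moved slightly sideways to part them. Genes above 100 FPKM lie mostly at 0 to 2 pseudogenes, while Rps2 with 12 and Rpl7a with 14 are high exceptions.

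The comparison of mesenchyme with bud asked whether the 2 inductive tissues differ in ribosomal protein RNA. Differences are log2(FPKM + 1) in mesenchyme minus bud, and adding 1 shrinks the differences of genes with low levels. The median over the 76 members at 1 FPKM or more in either tissue was -0.62, with the middle 50% between -0.89 and -0.39. All 11286 coding genes with that level had a median of -0.47, and the 353 at 50 FPKM or more in both had -0.50. Of the 76 members, 73 were lower in mesenchyme by any amount, beside 77.4% of all coding genes, and 3 were higher, beside 22.6%. At 2-fold, 12 of 76 members were higher in bud, beside 16.3% of all coding genes, and 0 were higher in mesenchyme, beside 4.34%. No p-value exists for these counts, since each tissue had 1 library. When both libraries were set to the same median over coding genes, which scaled bud values by 0.68, the members' median became -0.13. After that, 24 members were higher in mesenchyme (all genes 51%) and 52 in bud (all genes 49%), with 0 past 2-fold in mesenchyme (all genes 6.97%) and 0 in bud (all genes 7.22%). As a share of all coding FPKM, which needs no scaling, the members held 2.64% in mesenchyme and 3.04% in bud. This order turned when antisense rows were added to their genes, with 2.58% in mesenchyme and 2.42% in bud. Both subunits stood alike, with medians of -0.62 for the 46 large subunit genes used and -0.66 for the 30 small subunit genes.

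Among the largest differences toward bud was that of Rps3, which lines the entry of messenger RNA into the small subunit, with 50.4 FPKM in mesenchyme and 127 in bud (log2 difference -1.32). Of its FPKM, 74.5% was in a transcript with an unannotated junction, and with annotated transcripts only the difference was -0.73, under 2-fold. Rpl37a had 19.9 FPKM in mesenchyme and 50.02 in bud (-1.29). Rpl32l had 14.6 FPKM in mesenchyme and 33.3 in bud (-1.14), and Rpl32 had 214 in mesenchyme and 464 in bud (-1.11). These 4 kept the direction with equal medians, between -0.76 and -0.56.

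At the other end stood Rpl38, a large subunit protein whose loss of 1 copy disturbs the axial skeleton in Tail-short mice (chromosome 11: 114667818 to 114672333, mm10). It had 14.1 FPKM in mesenchyme and 9.86 in bud (log2 difference 0.48), and 0.97 with equal medians. Rps26 had 81.6 FPKM in mesenchyme and 77.7 in bud (0.07), or 0.81 with an antisense row added. Rps21 had 27.4 in mesenchyme and 31.0 in bud (-0.17), and Rps24 had 46.7 in mesenchyme and 53.3 in bud (-0.19). Rps15a had 13.8 FPKM in mesenchyme and 16.3 in bud (-0.22). Rps21, Rps24 and Rps15a were higher in mesenchyme with equal medians, at 0.36, 0.36 and 0.29.

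The authors' deposited table gives an FPKM interval for each transcript, which is not a spread between samples. In the authors' deposited table the main Rpl4 transcript ran from 326 to 426 FPKM in mesenchyme and from 548 to 683 in bud, so the intervals were apart. For Rps3 the authors' deposited table gave 26.2 to 41.1 FPKM in mesenchyme and 83.4 to 114 in bud. For Rpl38 the authors' deposited table gave 3.36 to 13.8 FPKM in mesenchyme and 0 to 7.18 in bud, which overlap. The same intervals of the authors' deposited table were compared for the 76 members at 1 FPKM or more in either tissue. Those of the main transcript were apart with the higher value in bud for 32 of the 76. Among all coding genes with that level the share was 36.6%. They were apart with the higher value in mesenchyme for 0 of the 76, beside 7.96%.

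Other genes of protein synthesis were placed by the same measure. The 77 mitochondrial ribosomal protein genes at 1 FPKM or more had a median difference of -0.70, with 13 at least 2-fold higher in bud and 0 in mesenchyme. The 30 translation initiation factors had -0.69 (7 in bud, 0 in mesenchyme), and the 12 elongation and termination factors used had -0.76 (4 in bud, 0 in mesenchyme). The 40 ribosome biogenesis genes had -0.59 (7 in bud, 0 in mesenchyme) and the 15 RNA polymerase I genes used had -0.64 (0 in either). The 20 genes of the S6 kinase and mTOR list had -0.51 (2 in bud, 0 in mesenchyme), and the 12 proliferation genes had -0.44 (0 in either). The 10 noncoding hosts of small nucleolar RNAs with a value, such as Gas5 and Snhg1, had -0.30, and Gas5 was at 65.3 FPKM in mesenchyme and 36.1 in bud. The medians of the ribosomal protein genes and of these lists lay within 0.5 of each other on the log2 scale, and each list was described without a test.

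**Figure D3:**
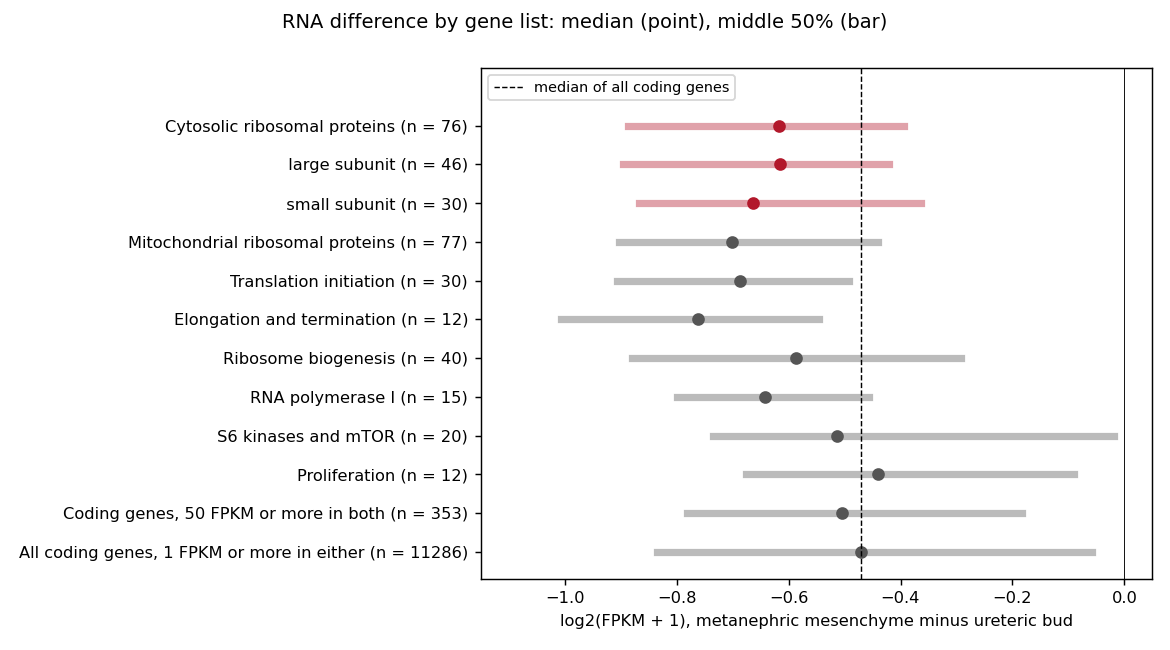
Median (point) and middle 50% (bar) of the difference in log2(FPKM + 1), metanephric mesenchyme minus ureteric bud, for each gene list, with the number of genes at 1 FPKM or more in either tissue. The ribosomal protein genes (red) have a median of -0.62, left of the dashed median of all coding genes at -0.47, and their bar overlaps those of the other translation lists.

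The 3 members listed at 0 in both tissues were paralogs known for restricted expression. A listed 0 does not show that a gene is silent, since Rps28 is listed at 0 in bud. Rpl3l, a striated muscle paralog of Rpl3, and Rpl10l and Rpl39l, testis paralogs of Rpl10 and Rpl39, made up the 3. Their parents were listed above 0, with Rpl3 at 10.2 FPKM in mesenchyme and 15.3 in bud, Rpl10 at 6.66 in mesenchyme and 10.5 in bud, and Rpl39 at 19.6 in mesenchyme and 42.5 in bud. Rpl32l (chromosome 10: 20208439 to 20209030, mm10) was listed well above 0, and because its parent Rpl32 was among the highest members, reads shared between the 2 cannot be told apart here. Rps27l, a p53-responsive paralog of Rps27, had 12.1 FPKM in mesenchyme and 20.6 in bud, above Rps27 itself at 1.96 in mesenchyme and 4.77 in bud.

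Several ribosome components fall outside the symbol rule. Rack1, a scaffold on the head of the small subunit, had 376 FPKM in mesenchyme and 1348 in bud (log2 difference -1.84), a wider gap than at any member. Fau, which encodes a small subunit protein fused to a ubiquitin-like domain, had 11.1 FPKM in mesenchyme and 19.8 in bud. Rps3a1 had 22.9 FPKM in mesenchyme and 28.1 in bud. The paralogs Rpl22l1 (50.4 in mesenchyme, 53.7 in bud) and Rpl7l1 (52.0 in mesenchyme, 86.9 in bud) were expressed in both tissues, and Rpl36al had 7.55 in mesenchyme and 6.68 in bud. Rps27rt had 0.662 FPKM in mesenchyme and 1.06 in bud, and Rpl37rt had 5.69 in mesenchyme and 4.44 in bud.

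Small nucleolar RNAs, which guide chemical changes of ribosomal RNA, are cut from introns of many of these genes. Of the 81 members, 29 held 58 annotated ones within their bounds, counted on either strand. The share of all coding genes that hold one was not computed, so this count does not set the members apart. Snora78, counted within Rps2, lay on the opposite strand. The RNA table listed 20 named small nucleolar RNA rows under 200 bases inside 15 members, of which 8 were at 0 in both tissues, 2 were higher in mesenchyme and 10 were higher in bud. Snord4a, inside Rpl23a, had 159 FPKM in mesenchyme and 232 in bud, while Rpl23a itself had 4.14 in mesenchyme and 3.82 in bud. Snord16a, inside Rpl4, had 39.1 in mesenchyme and 89.6 in bud, below its host. FPKM of such short RNAs are inflated by their length, and they were kept out of the members' levels.

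Nearly all members carried H3K4me3, the mark of active promoters, within 1 kb of an annotated start. The mark was present at 78 of 81 genes in cap mesenchyme, beside 65.9% of all coding genes, at 77 in ureteric epithelium, beside 62%, and at 81 in stem cells, beside 69.3%. Among coding genes at 10 FPKM or more in both RNA tissues the share was 98.6% for cap mesenchyme, 98.3% for ureteric epithelium and 98.6% for E14 cells. The exceptions were Rpl3l, Rpl10l and Rpl39l in both kidney populations and Rpl32l in ureteric epithelium. In stem cells these 4 carried peaks of 1400 bp (Rpl3l), 3278 bp (Rpl10l), 2068 bp (Rpl39l) and 676 bp (Rpl32l). Rpl32l had 562 bp in cap mesenchyme, the narrowest member there. Thus the 3 paralogs listed at 0 in the RNA were the members without the mark in both kidney populations.

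H3K27me3, the mark of Polycomb repression, was nearly absent from the family. It lay at 0 of 81 starts in cap mesenchyme, beside 8.14% of all coding genes, at 2 in ureteric epithelium, beside 11.51%, and at 0 in stem cells, beside 12.6%. Among coding genes at 10 FPKM or more in both tissues the shares were 1.002%, 1.52% and 4.40% in the same order. The 2 in ureteric epithelium were short peaks beside H3K4me3, 363 bp with a score of 97.7 at Rps29 (chromosome 12: 69157722 to 69159186, mm10) and 151 bp with a score of 43.7 at Rpl29. The score is the authors' own caller value, and no source used here says what it measures. The 4 paralogs without H3K4me3 in a kidney population had no H3K27me3 there.

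H3K4me3 peaks of the members were wider than those of all marked genes in each population, by the largest amount in stem cells. The median width over members with a peak was 3294 bp in cap mesenchyme, 2988 bp in ureteric epithelium and 7453 bp in E14 cells. All marked coding genes had medians of 2359, 2245 and 3034 bp, and coding genes at 50 FPKM or more in both RNA tissues had 3475, 3136 and 6061 bp. The 78 mitochondrial ribosomal protein genes had 2242 bp in cap mesenchyme, 2040 bp in ureteric epithelium and 3235 bp in E14 cells. Elongation and termination factors with a peak had 3696, 3520 and 8029 bp in the same order, above the members' medians. The 30 initiation factors had 2866.5, 2712 and 5012.5 bp, and the 40 ribosome biogenesis genes had 2800.5, 2459 and 5381 bp. Wide peaks were thus not particular to the ribosomal protein genes. Score could not rank most members in cap mesenchyme or stem cells, where 68 and 58 of them shared the value 3100. In ureteric epithelium only 5 members had that value, and ranking by a score of unknown meaning was not attempted.

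**Figure D4:**
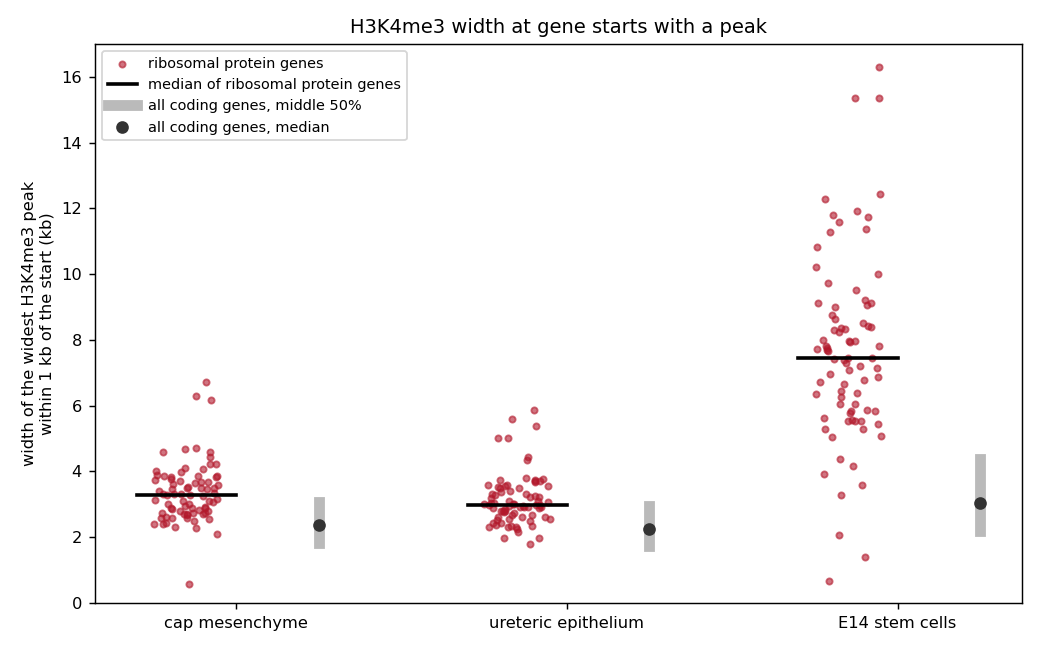
Width in kb of the widest H3K4me3 peak within 1 kb of a start, for each ribosomal protein gene with a peak (red points, black line at the median) and for all coding genes with a peak (grey bar for the middle 50%, dot at the median). Medians of the ribosomal protein genes are 3294 bp in cap mesenchyme, 2988 bp in ureteric epithelium and 7453 bp in E14 stem cells.

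Set against stem cells, every member with a peak in both was narrower in the kidney populations in the lists as deposited. Thus 0 of 78 were wider by any amount in cap mesenchyme, beside 16.2% of all coding genes, and 0 of 77 in ureteric epithelium, beside 10.8%. The median ratio of width in cap mesenchyme over stem cells was 0.46 across 78 genes (log2 ratio -1.11), and that of ureteric epithelium over stem cells was 0.42 across 77 genes (-1.26). All coding genes with both peaks had -0.35 for cap mesenchyme and -0.47 for ureteric epithelium, and those at 50 FPKM or more in both tissues had -0.70 and -0.85. Past 1.5-fold, 72 of 78 members were narrower in cap mesenchyme, beside 32.7% of all coding genes and 56.7% of those at 50 FPKM or more. In ureteric epithelium it was 72 of 77, beside 41% and 68.9%. Past 1.5-fold wider than stem cells were 0 members in cap mesenchyme, beside 2.39%, and 0 in ureteric epithelium, beside 2.1%. Of the mitochondrial ribosomal protein genes, 28 of 78 were past 1.5-fold narrower for cap mesenchyme and 44 of 78 for ureteric epithelium. Elongation and termination factors had median log2 ratios of -1.31 for cap mesenchyme and -1.41 for ureteric epithelium, further from equal width than the members. Initiation factors had -0.84 and -0.97 in the same order, and ribosome biogenesis genes had -0.85 and -1.07. Both kidney comparisons used the same stem cell list, which held 67022 peaks against 32992 in cap mesenchyme and 23958 in ureteric epithelium. Strain, culture and calling differ along with cell type and cannot be told apart.

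The widest stem cell peak of any member was at Rps15a, with 6707 bp in cap mesenchyme, 3571 bp in ureteric epithelium and 16297 bp in E14 cells. Rpl7 (6301 bp in cap mesenchyme, 5606 bp in ureteric epithelium, 8005 bp in stem cells) and Rps2 (6183, 5863 and 7730 bp in the same order) were among the wide ones in both kidney populations and near the members' median of 7453 bp in stem cells. At Rpl38 the peak was 2506 bp in cap mesenchyme, 2322 bp in ureteric epithelium and 11741 bp in E14 cells. Among the narrow ones, Rps29 had 2111 bp in cap mesenchyme, 1965 bp in ureteric epithelium and 3912 bp in E14 cells. Rps27l had 2289, 2155 and 3585 bp in the same order, and Rps23 had 2389, 1786 and 4153 bp.

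**Figure D5:**
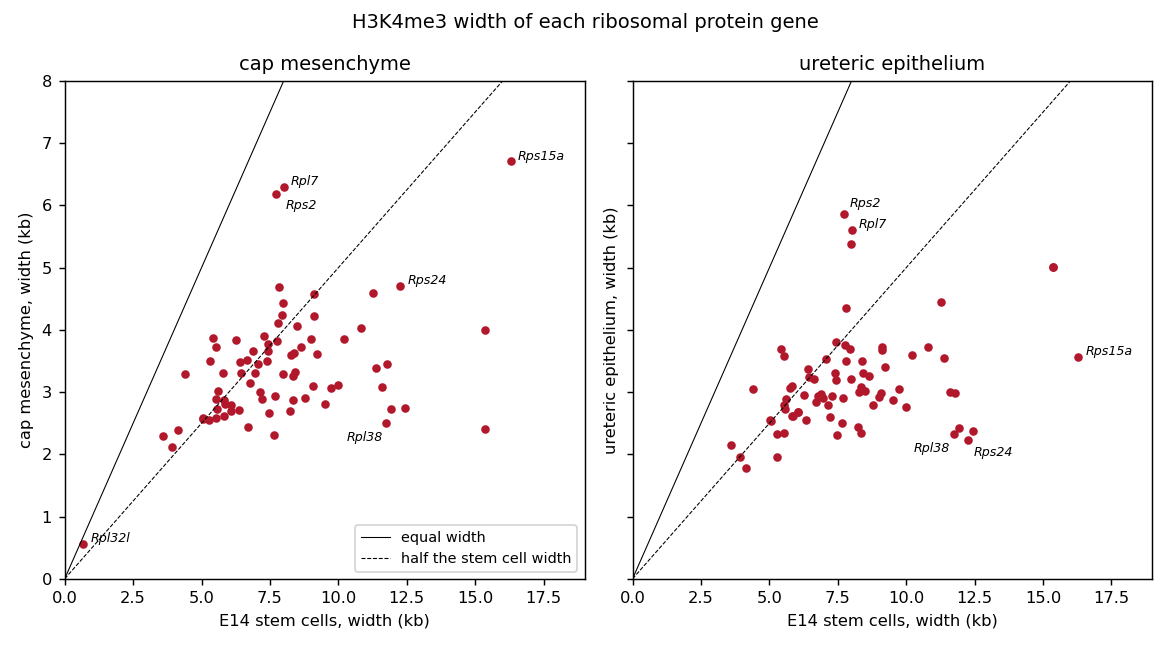
H3K4me3 width in kb of each ribosomal protein gene in cap mesenchyme (left panel, vertical axis) and in ureteric epithelium (right panel, vertical axis) against its width in E14 stem cells (horizontal axis). Every point lies below the solid line of equal width, and Rpl38 with 2506 bp in cap mesenchyme and 11741 bp in stem cells lies far below the dashed line.

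Between the kidney populations the widths were close. The median ratio of width in cap mesenchyme over ureteric epithelium was 1.07 (log2 ratio 0.10) across 77 members, beside 0.12 over 13438 coding genes. It was wider in cap mesenchyme by any amount at 66 of 77 members, beside 74.5% of all coding genes. Past 1.5-fold, 3 members were wider in cap mesenchyme, beside 6.7% of coding genes, and 1 was narrower, beside 2.78%. The wider ones were Rps24 (4702 bp in cap mesenchyme, 2233 bp in ureteric epithelium), Rps15a, with the widths above, and Rpl10 (3505 bp in cap mesenchyme, 1964 bp in ureteric epithelium). Rps19 had 4434 bp in cap mesenchyme and 5387 bp in ureteric epithelium. Across genes the widths in the 2 kidney populations had a Spearman's rho of 0.75 (n = 77), against 0.40 between cap mesenchyme and stem cells (n = 78) and 0.36 between ureteric epithelium and stem cells (n = 77).

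Among members above 0 FPKM, those with low and high RNA at E11.5 had similar H3K4me3 widths. The RNA and the chromatin came from different material, and E14 cells had no RNA sample. The 23 members above 0 but under 10 FPKM in both tissues had median widths of 3287 bp in cap mesenchyme, 2988 bp in ureteric epithelium and 7072 bp in E14 cells. The 11 members at 100 FPKM or more in both had 3100, 3052 and 7453 bp in the same order. Rps28, listed at 0 in bud, had H3K4me3 of 3452 bp in cap mesenchyme, 2988 bp in ureteric epithelium and 11797 bp in E14 cells, and shares its start region with Ndufa7. Spearman's rho between mean FPKM and width was 0.11 in cap mesenchyme (n = 76), 0.20 in ureteric epithelium (n = 75) and 0.19 in stem cells (n = 76), over genes that share 1 list each. The 14 members with another coding start within 1 kb, beside 10.7% of all coding genes, had 3722 bp in cap mesenchyme, 3381 bp in ureteric epithelium and 8160 bp in E14 cells. The 67 without one had 3108, 2937 and 7436 bp in the same order.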

How the data were processed

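H3K4me3 and H3K27me3 were profiled by native micrococcal nuclease ChIP in 3 cell populations, and RNA in 2 tissues with a stranded total RNA kit, per the labels. Per the submitters' processing notes, the tools were Bowtie2, MACS, TopHat, Cufflinks and Cuffdiff on mm10. Versions, settings and pooling are not given in the sources used here, and the 3 input samples were not analysed here. The authors deposited 6 peak lists with a score per peak, and a table of FPKM per transcript with lower and upper bounds. Neither holds counts, so depth is unknown and no count test or interval was possible.

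Sense transcripts were summed per gene. Of 138486 rows, 107272 were paired by RefSeq accession, 17905 by Cuffdiff gene and 4478 by position. Members had 186 rows, 158 by accession and 28 added, and 3 antisense rows were left out. Differences are log2(FPKM + 1) over genes at 1 FPKM or more in either tissue. A gene was counted at 2-fold only with 2 FPKM or more in the higher tissue. A peak counted with at least 1 bp within 1 kb of any annotated start, and its full width was taken, with 1.5-fold as the threshold. For genes outside the promoter table, strand was read from the order in which the RNA table lists loci, and for chromosome 18 from that order on the other chromosomes. Sequences and positions are from RefSeq GRCm38.p6. Each group held 1 sample, so comparisons are descriptions with no test.

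Named genes were the 5 highest and 5 lowest by mean FPKM, the 5 largest and 5 smallest differences at 10 FPKM or more, the 3 widest and narrowest peaks per population and the 3 largest and smallest width ratios. Members with H3K27me3, without H3K4me3 or at 0 FPKM, and a set with known roles, were named too. A further few (Rps2, Rps12, Rpl31, Rpl24, Rpl37, Rpl41, Rpl23a, Rps27 and the parents of paralogs) were named after their values were seen. A few results that these rules would name are not reported here. Members and lists were chosen with earlier results of these data known. Scripts were tested on simulated data and run with Python 3.11.15, pandas 2.3.3, numpy 2.4.6 and scipy 1.17.1. Alternatives changed the pseudocount, scaling, filters, pairing, window, score limits and width measure.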

Additional observations from a re-analysis of the deposited data

Results flagged for a closer look

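Short transcripts on the strand opposite 3 members stood outside the main measurement. Opposite Rps9, a row of 131 bases was listed at 1569 FPKM in mesenchyme and 980 in bud, while Rps9 itself was at 127 in mesenchyme and 269 in bud. Opposite Rps26, a row of 114 bases was listed at 1081 FPKM in mesenchyme and 586 in bud, while Rps26 was at 81.6 in mesenchyme and 77.7 in bud. Opposite Rps16, a row of 111 bases was listed at 8.20 FPKM in mesenchyme and 155 in bud, while Rps16 was at 5.19 in mesenchyme and 10.2 in bud. FPKM of transcripts this short are inflated by their length, and the source of these rows was not tested. The authors' deposited FPKM intervals overlapped between the tissues for all 3 rows. For the row opposite Rps16 they ran from 0 to 45.2 in mesenchyme and from 13.7 to 296 in bud. Each tissue had 1 library, so these differences have no replicate check.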

How the results depend on the processing

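Scaling had the most effect on the RNA difference. The members' median of -0.62 became -0.13 with equal medians and -0.10 with equal sums, and -0.84 over the members with no named pseudogene. The count at least 2-fold higher in bud, 12, became 0, 0 and 3 in those settings, where the last has fewer genes. The count higher in mesenchyme, 0, became 1 with equal sums and 1 with the most abundant transcript only, in both cases Rpl38. Equal medians moved the median of all coding genes from -0.47 to 0.01, and the members' median minus that of all genes was -0.14. With antisense rows added, the members' share of coding FPKM was 2.58% in mesenchyme and 2.42% in bud, so the order of the tissues turned. The 2 ureteric H3K27me3 starts became 3 with a window of 2 kb, 1 with lists of equal length, 0 with 50% of the window covered and 1 with a score of at least 50. Median H3K4me3 width in stem cells was 8138 bp with peaks joined across 1 kb. Counted as covered bases within 5 kb it was 6669 bp in stem cells and 3515 bp in cap mesenchyme. The log2 width ratio to stem cells was then -0.88 for cap mesenchyme and -0.98 for ureteric epithelium, beside -0.42 and -0.53 for all coding genes. Beyond scaling and the alternatives' own construction, causes were not tested. Only a chosen set of single genes was followed through the alternatives. Of these, Rpl11, Rpl28, Rps15a, Rps21, Rps24 and Rps29 took the opposite sign under 1 or both scalings. Rps19 was at -1.98 with rows paired by accession only. Other members changed sign too, such as Rps2, from -0.42 to 0.14 with equal medians. Over all 76 members used, 3 were higher in mesenchyme as deposited and 24 with equal medians. No difference past its threshold changed sign, and 79 of the 96 alternative values of the main results kept their call or size. The settings on pairing, antisense rows, junctions, pseudogenes, outermost starts and a score of 50 were chosen after seeing the data. No paired analysis was possible because each group held 1 sample.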
